A study of Mus musculus with 2 samples.

Results

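The 10 genes described here make, recycle, pack and break down serotonin. They were chosen by function, with earlier results of these data known. They are the synthesis enzymes Tph1 and Ddc, the cofactor genes Gch1, Pts, Spr and Qdpr, the vesicle transporters Slc18a1 and Slc18a2, and the breakdown enzymes Maoa and Maob. All 10 were listed in both plates, among 16943 nuclear genes listed in either plate. The cells came from mouse jejunum and ileum organoids of the genotype given as Neurog3-RFP hom, a red fluorescent reporter of Neurog3 carried by both groups on both alleles. Organoids received ISX-9 for 48 h or the solvent DMSO for 48 h, and reporter-positive cells were then sorted, 1 cell to a well. ISX-9 is a small isoxazole known to drive neuronal differentiation of progenitors. Because every well passed the reporter gate, the data say nothing about reporter-negative organoid cells. The cell type gated for is the Neurog3 lineage, and Neurog3 itself, the factor that starts the enteroendocrine fate, was read in 72.8% of the kept wells with ISX-9 and 49% with DMSO.

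In the gut epithelium serotonin is made by enterochromaffin cells, a kind of enteroendocrine cell. Tph1 hydroxylates tryptophan in the rate-limiting step, and Ddc removes the carboxyl group of the product to give serotonin. Tph1 works only with the cofactor tetrahydrobiopterin, which Gch1, Pts and Spr build from GTP and Qdpr regenerates after use. The vesicular monoamine transporters load serotonin into granules, and the monoamine oxidases degrade what remains in the cytosol.

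The ISX-9 plate held 17062599 reads and the DMSO plate 21398070. Wells with at least 2000 reads outside mitochondrial and spike-in rows and at least 500 genes were kept, 290 of 384 in ISX-9 and 300 of 384 in DMSO. Kept wells had a median of 22510 such reads in ISX-9 and 26340 in DMSO, and of 2981 and 2630 genes. Each treatment is 1 plate, so every difference between treatments is a difference between 2 libraries, with no test and no p-value. Levels are CPM: reads summed over wells and scaled to the same total of such reads in both plates. Intervals are exact at 95% and treat each read, or for shares each well, as independent. Since the reads are not collapsed to molecules, the Poisson intervals are narrower than the counting error of molecules. They also leave out the spread between wells and between plates. Of the defining markers, 10 enterochromaffin markers summed to 15940 CPM in ISX-9 and 16406 CPM in DMSO. Of these 10, 3 were at least 2-fold lower in ISX-9 and 0 higher. The 6 immune and mesenchymal markers summed to 7.03 and 1.02 CPM. Goblet markers summed to 4098 CPM in ISX-9 and 9811 CPM in DMSO, with 6 of 8 at least 2-fold lower. Paneth markers summed to 2691 and 11682 CPM, with 5 of 6 at least 2-fold lower. Progenitor markers summed to 4998 CPM in ISX-9 and 1628 CPM in DMSO, with 6 of 8 at least 2-fold higher, and peptidergic markers to 2958 and 5898 CPM, with 5 of 10 at least 2-fold lower. Their part in the plate differences below was not tested, except where values without Muc2-high wells are given.

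Between the plates, the members lay within 2-fold in summed CPM. By that measure the transporter gene Slc18a1 stood farthest apart, higher with ISX-9, but Tph1 stood farther with ERCC scaling and without Muc2-high wells, and Slc18a2, Maob and Gch1 stood farther as means over wells and in thinned wells. Of the 9 members with a mean of at least 10 CPM, 0 were 2-fold higher and 0 were 2-fold lower in ISX-9. Over all 9106 genes at that level, 4.51% were at least 2-fold higher and 1.19% at least 2-fold lower. Log2 ratios are of (CPM + 5), with ISX-9 over DMSO, and so come out too small for low genes. Their median over the 10 members was 0.08, 6 being positive and 4 negative, against 0.15 over all genes. Median-of-ratios scaling moved the ratios of all genes by -0.17 and ERCC spike-in scaling by -0.25, and with either 4 members were positive and 6 negative.

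Tph1 was read in 135 ISX-9 wells, 46.6% of them (Clopper-Pearson interval 40.7 to 52.5), and in 132 DMSO wells, 44% (38.3 to 49.8). Per well it ran from 0 to 11469 CPM in ISX-9 and from 0 to 14301 CPM in DMSO. In wells with a read the median was 805 CPM in ISX-9 and 712 CPM in DMSO, and the upper quartile 2238 CPM in ISX-9 and 3891 CPM in DMSO. The plate level was 484 CPM (Poisson interval 472 to 497) with ISX-9 and 717 CPM (704 to 731) with DMSO, a log2 ratio of -0.56. That ratio was -0.12 without the top 5% of wells by reads, -0.81 with ERCC scaling and -0.82 without Muc2-high wells. The wells of the plates overlapped over nearly their whole range, and the upper quartile was higher in DMSO. The top 3 wells carried 17.8% of the ISX-9 and 28.6% of the DMSO reads.

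Ddc, which also serves dopamine synthesis in other cells, had a read in 58.3% of wells with ISX-9 (52.4 to 64) and 48.3% with DMSO (42.5 to 54.1). Its median in wells with a read was 484 CPM in ISX-9 and 366 CPM in DMSO, with highest wells at 3944 and 5408 CPM. The plate sums were 340 CPM in ISX-9 and 316 CPM in DMSO, a log2 ratio of 0.10 that changed sign under median-of-ratios scaling (-0.06), ERCC scaling (-0.15) and without Muc2-high wells (-0.12). No direction was therefore read for Ddc. In the RefSeq annotation of GRCm38.p6, Ddc overlaps the long noncoding genes 1700042O10Rik and Gm51937, whose reads could fall to either.

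The RefSeq start regions of Tph1 and Ddc are shown because both genes are read in the same lineage. Yet they went apart with Neurog3 in ISX-9, and in DMSO only in the highest Neurog3 group, as described below. Factors of the class of Neurog3 and Neurod1 bind the E-box CANNTG. Each window runs from 250 bases before to 50 bases after an annotated start, GRCm38.p6, written 5′ to 3′ on the strand of the gene, with E-boxes in capitals.
Tph1 start 1, chr7:46672488-46672787, minus strand: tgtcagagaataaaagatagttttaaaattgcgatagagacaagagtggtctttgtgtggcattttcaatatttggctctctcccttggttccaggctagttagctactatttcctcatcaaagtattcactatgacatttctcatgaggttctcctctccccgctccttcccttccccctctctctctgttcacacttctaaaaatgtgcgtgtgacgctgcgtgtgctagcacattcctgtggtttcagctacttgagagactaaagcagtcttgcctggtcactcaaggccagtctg
Tph1 start 2, chr7:46667328-46667627, minus strand: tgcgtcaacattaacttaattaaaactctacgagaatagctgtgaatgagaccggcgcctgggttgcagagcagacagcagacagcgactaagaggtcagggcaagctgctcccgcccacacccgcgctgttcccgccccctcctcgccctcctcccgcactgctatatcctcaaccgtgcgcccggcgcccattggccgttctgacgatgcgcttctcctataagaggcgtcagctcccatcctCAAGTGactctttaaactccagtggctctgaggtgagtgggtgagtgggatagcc
Ddc start 1, chr11:11898095-11898394, minus strand: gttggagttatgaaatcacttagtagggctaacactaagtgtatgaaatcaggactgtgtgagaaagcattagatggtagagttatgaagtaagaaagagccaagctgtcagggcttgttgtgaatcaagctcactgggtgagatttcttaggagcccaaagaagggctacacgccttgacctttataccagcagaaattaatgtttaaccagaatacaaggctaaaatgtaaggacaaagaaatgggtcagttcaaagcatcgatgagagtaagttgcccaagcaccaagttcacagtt
Ddc start 2, chr11:11890359-11890658, minus strand: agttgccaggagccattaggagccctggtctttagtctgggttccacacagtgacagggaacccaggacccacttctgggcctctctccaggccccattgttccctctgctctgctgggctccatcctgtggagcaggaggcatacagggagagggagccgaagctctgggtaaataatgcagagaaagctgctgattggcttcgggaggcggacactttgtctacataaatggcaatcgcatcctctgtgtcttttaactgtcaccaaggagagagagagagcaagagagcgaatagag

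CANNTG reads the same on both strands. Among these windows it occurs in the second Tph1 start region alone, and in neither Ddc region. There it is CAAGTG, which begins 5 bases before the annotated start and ends on the start base itself. RefSeq held 10 windows for 8 of the members, and the motif was found 1 time each in those of Qdpr (CAGATG), Slc18a2 (CAGCTG) and Maoa (CAAGTG). Of 32851 start regions of the same length over all genes, 72.3% held it. These windows carry no reads here, since the method copies the 3′ end of the transcript, and which start was used was not measured.

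Among the cofactor genes, Gch1, the first and rate-limiting enzyme of tetrahydrobiopterin synthesis, differed most between plates. Reads were found in 47.6% of wells with ISX-9 (41.7 to 53.5) and 34.3% with DMSO (29 to 40), with a median of 183.5 CPM and 147 CPM in those wells. Its level was 119 CPM (113 to 125) with ISX-9 and 71.9 CPM (67.7 to 76.4) with DMSO, a log2 ratio of 0.69. Spr, the sepiapterin reductase of the last step, stood at 37.9 CPM in ISX-9 and 25.6 CPM in DMSO (0.49), in 35.5% and 25.3% of wells. Pts, the enzyme of the middle step, stood at 50.3 CPM in ISX-9 and 48 CPM in DMSO (0.06, and -0.09 with median-of-ratios scaling), in 34.1% and 31% of wells. Qdpr, which recycles the cofactor, stood at 106 CPM in ISX-9 and 122 CPM in DMSO (-0.20), but its ratio was positive when CPM was averaged over wells (0.09), so that no direction was read.

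Slc18a1, which encodes the transporter VMAT1, was the most widely read member. It was found in 214 ISX-9 wells, 73.8% (68.3 to 78.8), and in 171 DMSO wells, 57% (51.2 to 62.7). In wells with a read the median was 574 CPM in ISX-9 and 240 CPM in DMSO, and the highest wells had 7370 and 9872 CPM. Its plate level was 548 CPM (535 to 562) with ISX-9 and 278.5 CPM (270 to 287) with DMSO, a log2 ratio of 0.96 and 1.97-fold in CPM, just under the 2-fold limit, which the log2 ratio passed without the highest well of each plate (1.03). The ratio was 0.48 as a mean over wells, 0.65 in thinned wells, 0.67 without Muc2-high wells and 0.71 with ERCC scaling. Its 3 highest wells held 8.61% of the reads with ISX-9 and 15.2% with DMSO. Slc18a2, which encodes VMAT2, the form of brain neurons, had 39 reads in 10 ISX-9 wells and 82 reads in 13 DMSO wells. That is 3.31 CPM (2.35 to 4.52) and 5.56 CPM (4.42 to 6.90), a log2 ratio of -0.35, with 71.8% of the ISX-9 and 67.1% of the DMSO reads in the top 3 wells. Slc18a1 gave 99.4% of the reads of both transporters in ISX-9 (99.2 to 99.6) and 98% in DMSO (97.6 to 98.4), counted as reads without scaling to transcript length. A well with Slc18a2 but no Slc18a1 occurred 0 times in ISX-9 and 1 time in DMSO.

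Maoa, whose enzyme prefers serotonin, had a read in 24.8% of wells with ISX-9 and 25.3% with DMSO. Its level was 57.8 CPM (53.5 to 62.3) with ISX-9 and 72.9 CPM (68.6 to 77.4) with DMSO, a log2 ratio of -0.31 that was positive as a mean over wells (0.38). In DMSO 1 well held 14.8% of its reads. Maob stood at 11.9 CPM in 14 ISX-9 wells and 9.08 CPM in 8 DMSO wells, where 1 well held 64.2% of the DMSO reads. Of the reads of both oxidases, Maoa gave 83% in ISX-9 and 88.9% in DMSO. The plot of the members by plate shows these levels and shares.

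**Figure D1:**
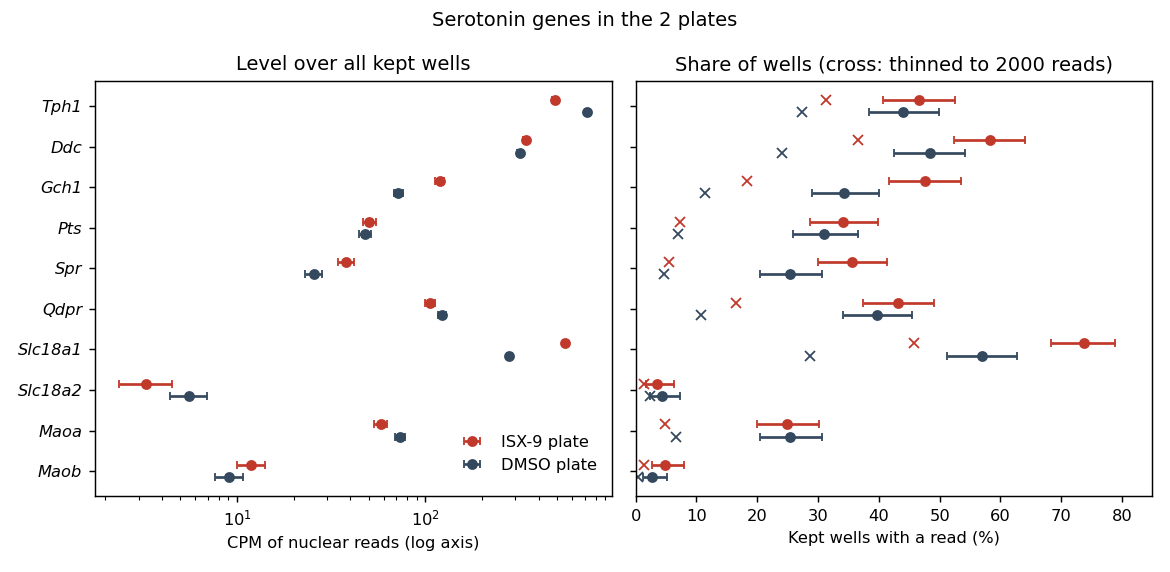
Left, CPM of each gene over all kept wells of the ISX-9 plate (red) and the DMSO plate (dark blue) on a log axis, with exact 95% Poisson intervals. Right, the percent of kept wells with a read and its exact 95% interval, with crosses for wells thinned to 2000 reads. Slc18a1 stands at 548 CPM in ISX-9 and 278.5 CPM in DMSO, and Slc18a2 and Maob are read in under 5% of wells.

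Shares of wells with a read depend on depth. After each well was thinned to 2000 reads, Tph1 was read in 31.4% of ISX-9 and 27.3% of DMSO wells, Ddc in 36.6% and 24%, Gch1 in 18.3% and 11.3%, and Slc18a1 in 45.9% and 28.7%. These 4 shares stayed higher in ISX-9. Tph1 was also read at low levels in wells led by another lineage. In wells rich in the goblet mucin Muc2 (at least 1000 CPM), Tph1 was read in 25.6% of 43 ISX-9 and 26.2% of 84 DMSO wells, at only 21.7 and 10.7 CPM. A Tph1 read alone therefore did not mark a high Tph1 level, and the source of these reads was not tested. Median depths of these wells were 11841 reads in ISX-9 and 32080 reads in DMSO. Of all kept wells with a Tph1 read, 27 of 135 in ISX-9 and 38 of 132 in DMSO held a single read. In wells below the filter, Tph1 was read in 18.1% of 94 ISX-9 and 16.7% of 84 DMSO wells. All 384 well names occur in both plates. Tph1 was read in 36.4% of the 22 ISX-9 wells whose DMSO namesake had at least 100 Tph1 reads, and in 48.1% of the 187 whose namesake had 0. Few wells bear on the other members: Ddc was read in 83.3% of 6 such ISX-9 wells and 58.7% of 172, and in 0 of 4 DMSO wells with a high ISX-9 namesake and 46% of 163. For Slc18a1 the shares were 85.7% of 7 and 78.4% of 153 ISX-9 wells, and 70% of 10 and 60.5% of 124 DMSO wells.

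Wells with a complete serotonin gene set were more common in the ISX-9 plate. The set was taken as Tph1, Ddc, Gch1 and at least 1 vesicle transporter. It was present in 69 ISX-9 wells, 23.8% (19 to 29.1), and in 49 DMSO wells, 16.3% (12.3 to 21). Thinned to 2000 reads, the shares were 6.21% (3.72 to 9.63) and 2.67% (1.16 to 5.19). Among wells with Tph1, 51.1% of the ISX-9 wells (42.4 to 59.8) and 37.1% of the DMSO wells (28.9 to 46) had the set. These intervals overlap between plates.

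Of the combinations of Tph1, Ddc, Gch1, Slc18a1 and Slc18a2, the one without Slc18a2 but with the other 4 was the most frequent in ISX-9 at full depth, in 61 wells, against 40 in DMSO. In thinned wells it was found in 15 ISX-9 and 6 DMSO wells, and the empty combination was the most frequent in both plates, in 90 and 144 wells. In DMSO the empty combination was the most frequent at full depth too, in 58 wells, against 35 in ISX-9. Ddc with Slc18a1 but no Tph1 and no Gch1 was found in 32 ISX-9 and 21 DMSO wells. Slc18a1 alone was read in 29 ISX-9 and 27 DMSO wells, Ddc alone in 9 and 22, and Tph1 alone in 7 and 17. Thinned, Ddc alone was read in 29 ISX-9 and 21 DMSO wells, so that its order between plates turned. All 5 genes were read together in 8 ISX-9 and 9 DMSO wells. Depth moves with these counts: wells with 4 of the 5 genes had a median of 40004 reads in ISX-9 and 47252 in DMSO, and wells with 0 had 5936 and 14420. The part of depth in the combinations was not tested beyond thinning.

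Within wells that had both enzymes, a transporter was found in most and the first cofactor enzyme in many. Of 95 ISX-9 wells with Tph1 and Ddc, 86.3% also had a transporter and 74.7% had Gch1. Of 82 such DMSO wells, 82.9% had a transporter and 65.9% had Gch1. Over all wells, with or without the enzymes, Slc18a1 was found in 73.8% with ISX-9 and 57% with DMSO. Thinned, 68.1% of 47 ISX-9 and 68.8% of 32 DMSO wells with both enzymes had a transporter, and 42.6% and 28.1% had Gch1. All 3 synthesis genes of the cofactor, Gch1, Pts and Spr, were read in 24.6% of the 69 full-set ISX-9 wells and 42.9% of the 49 full-set DMSO wells, and those wells had median depths of 87729 and 164304 reads. Thinned, 0 of 18 ISX-9 and 0 of 8 DMSO full-set wells had them all, with intervals up to 18.5% and 36.9%, so a difference was not detectable at that depth. Maoa or Maob was read in 26.7% of ISX-9 wells with Tph1 and 27.7% of those without, and in 27.3% and 25.6% of DMSO wells. The intervals of these shares overlapped in each plate.

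The synthesis enzymes parted with the Neurog3 level of the well in ISX-9, and in DMSO only in the highest Neurog3 group. Ddc was highest in the wells of highest Neurog3 in both plates, whereas the Tph1 level was lowest there, although not in thinned DMSO wells. Wells were grouped as 0 Neurog3 reads, below 1000 CPM, 1000 to below 10000 CPM, and from 10000 CPM. The groups held 79, 106, 66 and 39 ISX-9 wells, and 153, 100, 36 and 11 DMSO wells. The last DMSO group has under 20 wells, a thin base for each of its values.

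Ddc stood, in order of rising Neurog3, at 290, 276, 367 and 662 CPM in ISX-9 and at 240, 295, 549 and 873 CPM in DMSO. It was read in 38%, 58.5%, 66.7% and 84.6% of the ISX-9 wells and in 40.5%, 46%, 80.6% and 72.7% of the DMSO wells. In ISX-9, wells from 10000 CPM had a log2 ratio of 1.18 over wells with 0 Neurog3 reads (0.97 to 1.39, from the far ends of both Poisson intervals). In DMSO the same ratio was 1.84 (1.56 to 2.12), and 1 well held 37% of the Ddc reads of the highest group. Depth differed between the groups, with median reads of 11841, 34500, 21278 and 30401 in ISX-9 and of 18683, 39272, 26666 and 10725 in DMSO. Thinned to 2000 reads, Ddc was read in 21.5%, 34%, 48.5% and 53.8% of the ISX-9 wells and in 16.3%, 22%, 52.8% and 54.5% of the DMSO wells. Ddc was the 1 member at least 2-fold higher in this contrast in each plate, of 8 members with a mean of at least 10 CPM. Over all genes 12.8% were that much higher in ISX-9 and 21.7% in DMSO, so the count of 1 of 8 exceeded that share in neither plate.

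Tph1 stood at 599, 572, 295 and 242 CPM in ISX-9 and at 610, 785, 813 and 327 CPM in DMSO. It was read in 50.6%, 55.7%, 40.9% and 23.1% of the ISX-9 wells and in 36.6%, 51%, 52.8% and 54.5% of the DMSO wells. The ratio of the highest to the zero group was -1.29 in ISX-9 (-1.53 to -1.05). It was -0.89 in DMSO (-1.28 to -0.52), but 0.04 in thinned DMSO wells. In the highest DMSO group 1 well held 72% of the 75 Tph1 reads, and the median well had 19.85 CPM. At 1000 to below 10000 CPM the plates went opposite ways, with a ratio of -1.01 in ISX-9 and 0.41 in DMSO, a difference that was not tested. In that contrast 1 of 8 members was 2-fold lower in ISX-9, Tph1, and 0 were 2-fold higher, against 6.53% of all genes in each direction. In DMSO 2 of 9 were 2-fold higher, Ddc and Maob, against 8.6%, and 0 were 2-fold lower, against 4.21%. Counted against each other, there were 0.484, 0.482, 1.24 and 2.73 Ddc reads for each Tph1 read in the ISX-9 groups, and 0.393, 0.377, 0.675 and 2.67 in the DMSO groups. Ddc was read without Tph1 in 24 of the 39 ISX-9 wells from 10000 CPM, 61.5% (44.6 to 76.6), and Tph1 without Ddc in 0 of them, which allows a share of up to 9.03%. In wells with 0 Neurog3 reads, Ddc without Tph1 made up 8.86% in ISX-9 and Tph1 without Ddc 21.5%. In DMSO Ddc without Tph1 made up 45.5% from 10000 CPM (16.8 to 76.6) and 19% at 0 reads (13.1 to 26.1). Tph1 without Ddc made up 27.3% of the 11 DMSO wells from 10000 CPM (6.02 to 61) and 15% at 0 reads (9.77 to 21.7). The DMSO intervals overlap for both shares, so no order was read. Thinned, Ddc without Tph1 made up 46.2% of the ISX-9 wells from 10000 CPM and Tph1 without Ddc 7.69%. In the thinned DMSO wells of that group the shares were 45.5% and 18.2%.

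**Figure D2:**
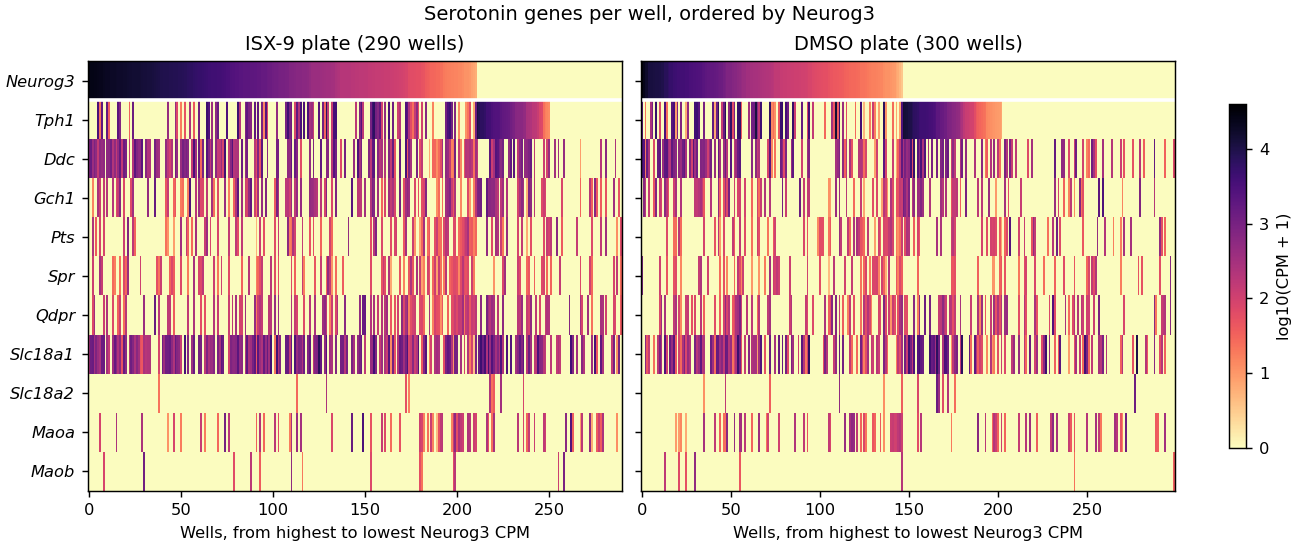
Each column is 1 kept well, ordered from the highest to the lowest Neurog3 CPM, then by Tph1, and each row a gene. Colour gives log10(CPM + 1), from light (0) to dark. Left, 290 ISX-9 wells, right, 300 DMSO wells. Ddc is read in 84.6% of the ISX-9 wells from 10000 CPM of Neurog3, where Tph1 is read in 23.1%.

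Over the Neurog3 groups, Gch1 was lowest in the highest group of the ISX-9 plate and highest in that of the DMSO plate. It stood at 147, 127, 97.7 and 72.1 CPM in the ISX-9 groups and at 74, 62.7, 93.8 and 140 CPM in the DMSO groups. The log2 ratio of the highest group over 0 reads was -0.98 in ISX-9 (-1.42 to -0.55) and 0.87 in DMSO (0.21 to 1.49), where 32 reads carry the DMSO value of the highest group. The difference between plates was not tested.

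Qdpr and Maoa were lowest where Neurog3 was highest. Qdpr stood at 143, 108, 93.5 and 56.9 CPM in ISX-9 and at 122, 136, 80.9 and 13.1 CPM in DMSO. Maoa stood at 59.3, 68.8, 51.6 and 17.5 CPM in ISX-9. In DMSO it stood at 41.5, 108 and 36.7 CPM in the first 3 groups, and had 0 reads in the 11 wells from 10000 CPM (up to 16.1 CPM). In ISX-9 the members at least 2-fold lower in the highest group were Tph1, Qdpr and Maoa, 3 of 8, against 16.3% of all genes. In DMSO they were Pts, Qdpr and Maoa, 3 of 8, against 25.7% of all genes. Pts, at 30.4 CPM in the highest ISX-9 group and 45.3 CPM at 0 reads, had 0 reads in the highest DMSO group.

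The Slc18a1 level showed no steady course over the Neurog3 groups. It stood at 520, 482, 708 and 601 CPM in ISX-9 and at 317, 228, 359 and 327 CPM in DMSO, and its ISX-9 ratio of the highest group over 0 reads was 0.20, but -0.49 in thinned wells. The share of wells with a Slc18a1 read was 62%, 74.5%, 81.8% and 82.1% in ISX-9 and 51%, 59%, 77.8% and 54.5% in DMSO. Thinned, it was 36.7%, 46.2%, 56.1% and 46.2% in ISX-9 and 26.8%, 22%, 47.2% and 54.5% in DMSO. Spearman correlations of Slc18a1 with Neurog3 over wells were 0.13 in ISX-9 and 0.14 in DMSO. Slc18a2 lay at the other end of the range: all but 1 of its 39 reads with ISX-9 and all but 1 of its 82 reads with DMSO came from wells below 1000 CPM of Neurog3. Such wells, with those at 0 reads, were also most of the plates, at 27.2% and 36.6% of ISX-9 wells and 51% and 33.3% of DMSO wells.

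**Figure D3:**
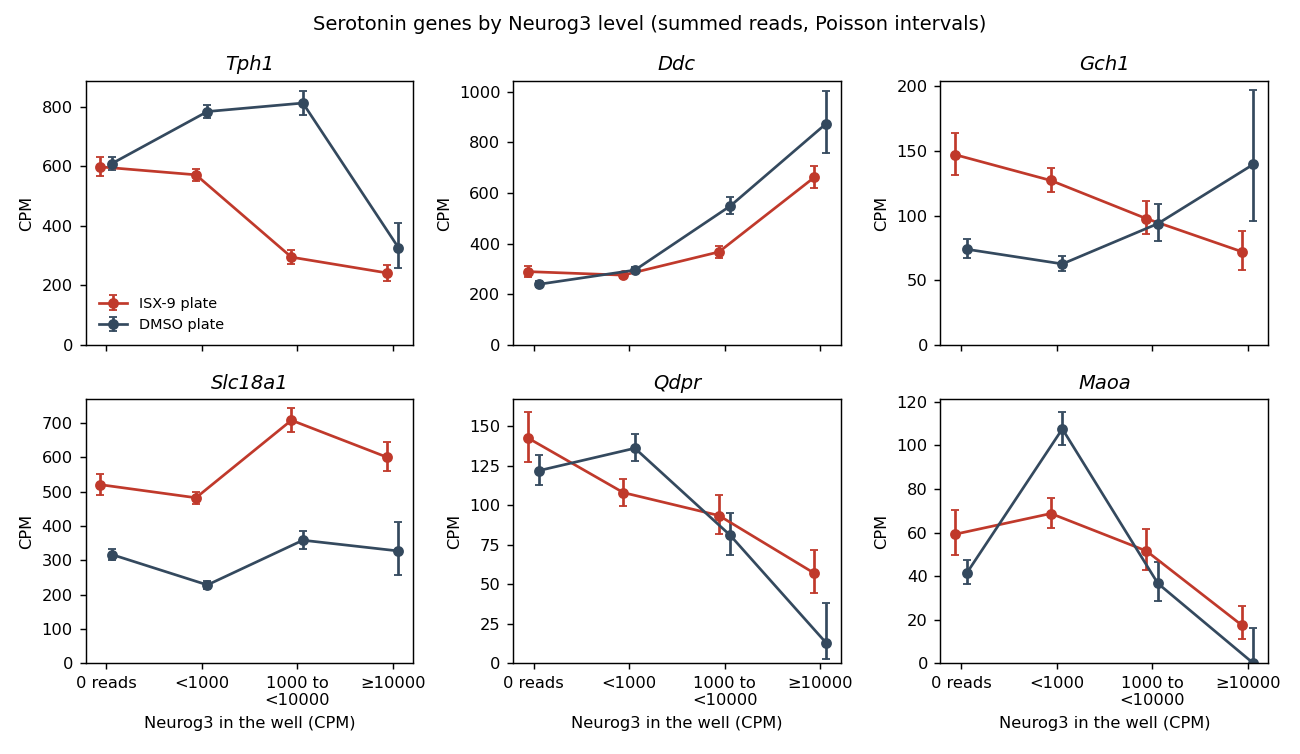
CPM of 6 of the genes in wells grouped by Neurog3 CPM, from 0 reads to at least 10000, in the ISX-9 plate (red) and the DMSO plate (dark blue), with exact 95% Poisson intervals. Each y axis starts at 0. Ddc reaches 662 CPM in ISX-9 and 873 CPM in DMSO in the highest group, where Tph1 is at 242 and 327 CPM.

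Markers moved with the Neurog3 groups as well. The progenitor list, which holds Neurog3, summed to 1153, 1030, 7719 and 24270 CPM over the ISX-9 groups and to 727, 728, 5570 and 19538 CPM over the DMSO groups. The enterochromaffin list summed to 21492, 17145, 12342 and 7753 CPM in ISX-9 and to 14087, 17701, 19672 and 3208 CPM in DMSO. Goblet markers summed to 5956, 4427, 2764 and 1926 CPM in ISX-9 and to 9097, 12787, 668 and 5804 CPM in DMSO. Peptidergic markers summed to 8996, 2065, 757 and 811 CPM in ISX-9 and to 8466, 5122, 2202 and 262 CPM in DMSO. Paneth markers summed to 4495, 2822, 1649 and 964 CPM in ISX-9 and to 13617, 12674, 1843 and 14332 CPM in DMSO. Without Muc2-high wells the Ddc ratio of the highest over the zero group in DMSO was 1.32 and the Tph1 ratio -1.49, and the part of the other markers was not tested.

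Beside Tph1, the genes of the first cofactor step and of vesicle loading were higher, and Pts and Spr lay within 0.41 of 0 on the log2 scale. Wells with a Tph1 read had 206 CPM of Gch1 in ISX-9 and wells without had 37.3 CPM, a log2 ratio of 2.32 (2.07 to 2.57). In DMSO they had 94.5 and 42.6 CPM, a ratio of 1.06 (0.81 to 1.32), but 0.20 in thinned wells. Ddc stood at 470 CPM with Tph1 and 218 CPM without in ISX-9 (1.09), and at 444 and 150 CPM in DMSO (1.53). Slc18a1 stood at 741 CPM with Tph1 and 367 CPM without in ISX-9 (1.00), and at 377 and 150 CPM in DMSO (1.30). Slc18a2 was almost confined to wells with Tph1, with 1 ISX-9 read and 3 DMSO reads outside them. Its ratio was 1.17 in ISX-9 (0.72 to 1.5) and 1.40 in DMSO (0.97 to 1.72).

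Of the 8 other members with a mean of at least 10 CPM in ISX-9, Ddc, Gch1 and Slc18a1 were at least 2-fold higher with Tph1, 3 of 8, against 3.66% of all genes. In DMSO they were Ddc, Gch1, Qdpr and Slc18a1, 4 of 7, against 3.61%. Of those members 0 were 2-fold lower, against 1.43% of all genes in ISX-9 and 1.25% in DMSO. The members were chosen with earlier results of these data known, so these counts describe the list and are no independent test. Qdpr stood at 127 CPM with Tph1 and 85.8 CPM without in ISX-9 (0.54), and at 163 and 68.5 CPM in DMSO (1.20). Pts differed by -0.01 in ISX-9 and 0.25 in DMSO, and Spr by -0.41 and 0.21, with the Spr sign turning in thinned ISX-9 wells (0.30). Maoa was at 0.38 in ISX-9 and 0.44 in DMSO, but at -0.56 and -0.09 in thinned wells. The Maob ratio of 1.47 in DMSO rests on the 1 well with 64.2% of its reads.

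**Figure D4:**
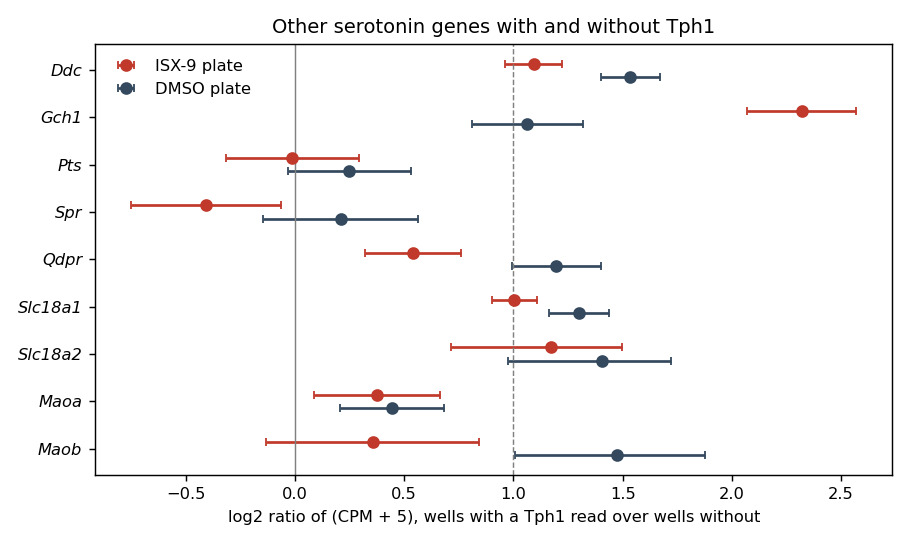
Log2 ratio of (CPM + 5) of each other member in wells with a Tph1 read over wells without, in the ISX-9 plate (red) and the DMSO plate (dark blue). Bars join the far ends of both Poisson intervals, the solid line marks 0 and the dashed line 2-fold. Gch1 is at 2.32 in ISX-9 and 1.06 in DMSO, and Pts at -0.01 and 0.25.

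The level of Tph1 went with these genes, a split that was added after the values were seen. Wells were ordered as below 500, 500 to below 2000 and from 2000 CPM of Tph1, with 54, 44 and 37 wells in ISX-9 and 60, 25 and 47 in DMSO. Gch1 stood at 90.8, 245 and 518 CPM in the ISX-9 wells and at 48.1, 83.2 and 243 CPM in the DMSO wells. Slc18a1 stood at 439, 836 and 1576 CPM in ISX-9 and at 135, 204 and 1273 CPM in DMSO. Ddc stood at 323, 571 and 766 CPM in ISX-9 and at 160, 320 and 1409 CPM in DMSO. Each of these genes thus had its highest level where Tph1 was highest, in both plates. Depth differed between the classes, with median reads of 34557, 29034 and 15741 in ISX-9 and of 60001, 13065 and 16300 in DMSO. Thinned, the shares of wells with Gch1 and Slc18a1 were largest in the top class of both plates. That of Ddc was largest there in DMSO, but was 42.59%, 54.55% and 45.95% over the ISX-9 classes. The part of depth was not tested beyond thinning. In the top class Slc18a2 reached 39.4 CPM (27.4 to 54.8) with ISX-9 and 43.8 CPM (34.3 to 55) with DMSO, but it was at or below 3.40 CPM in the lower classes of both plates. Maoa was lower there, at 70.6, 71 and 41.6 CPM in ISX-9 and at 89.8, 97.4 and 48 CPM in DMSO. In the top class Gch1 was higher in the ISX-9 plate (518 against 243 CPM) and Ddc lower (766 against 1409 CPM).

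The 4 states of a well were formed after the values were seen, from Neurog3 of at least 1000 CPM and a Tph1 read. Ddc stood at 422 CPM in ISX-9 and 588 CPM in DMSO wells with high Neurog3 and no Tph1, and at 592 and 583 CPM in wells with both. In wells with Tph1 and no high Neurog3 it stood at 442 CPM in ISX-9 and 416 CPM in DMSO, and in wells with neither at 64.6 and 94.8 CPM. Gch1 was low without Tph1 whatever the Neurog3 level in ISX-9, at 41 CPM with high Neurog3 alone and 34.5 CPM with neither. With Tph1 it stood at 203 CPM beside high Neurog3 and 207 CPM without it. In DMSO these 4 values were 65.6, 39.7, 116 and 90.2 CPM. Slc18a1 was highest in ISX-9 wells with both, at 1047 CPM (987 to 1110), against 337 CPM in DMSO wells with both.

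Slc18a1 was also read in wells rich in Muc2, where Tph1 and Ddc were low. This contrast was added after the values were seen. Muc2-high wells had 617 CPM of Slc18a1 in ISX-9 (576 to 660) and the other wells 539 CPM (525 to 554). In DMSO they had 114 CPM (104 to 125) and the other wells 336 CPM (325 to 347). Slc18a1 was read in 67.4% of the 43 Muc2-high ISX-9 wells and in 45.2% of the 84 Muc2-high DMSO wells. In the same wells Ddc stood at 6.50 CPM in ISX-9 and 22.7 CPM in DMSO, and Gch1 at 21.7 and 30.5 CPM. The wells with at least 500 CPM numbered 16 for Slc18a1, 2 for Tph1 and 1 for Ddc in ISX-9, and 10, 2 and 0 in DMSO.

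There were 28.5 Slc18a1 reads for each Tph1 read in Muc2-high ISX-9 wells, against 0.988 in the others, and 10.7 against 0.348 in DMSO. In 11 Muc2-high ISX-9 wells without a read of Tph1, Neurog3 or Chga, a bin of under 20 wells, Slc18a1 stood at 524 CPM (423 to 641). That level rests on 94 reads in 6 of the 11 wells, with 43.6% of them in 1 well. The median of these 11 wells was only 39.1 CPM. In 21 such DMSO wells Slc18a1 stood at 153 CPM (123 to 187). The log2 ratio of Muc2-high over other wells was 0.19 in ISX-9 and -1.52 in DMSO. Averaged over wells, the ISX-9 ratio was -0.26. Of the 8 members with a mean of at least 10 CPM, 3 were at least 2-fold lower in Muc2-high ISX-9 wells, Tph1, Ddc and Gch1, against 13.8% of all genes. In DMSO 5 of 8 were, Tph1, Ddc, Gch1, Qdpr and Slc18a1, against 8.6%. Of these members 0 were 2-fold higher, against 4.55% of all genes in ISX-9 and 2.93% in DMSO.

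A neighbouring gene bears on the counting of Slc18a1. In the RefSeq annotation its span overlaps Atp6v1b2, a subunit gene of the proton pump that acidifies vesicles, and how shared reads were counted is not stated in the sources used here. Atp6v1b2 stood at 749 CPM in Muc2-high ISX-9 wells and 724 CPM in the others, and at 400 and 594 CPM in DMSO. There were 0.824 Slc18a1 reads for each Atp6v1b2 read in Muc2-high ISX-9 wells and 0.745 in the others, and 0.286 and 0.566 in DMSO. Slc18a1 was read in 74.2% of the 31 Muc2-high ISX-9 wells with Atp6v1b2 and in 6 of the 12 without, and in DMSO in 56.4% of 55 and in 7 of 29. Wells with no Atp6v1b2 read held 13.3% of the Slc18a1 reads of Muc2-high ISX-9 wells and 4.79% of those in DMSO. The part of shared reads in the Slc18a1 values was not tested.

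**Figure D5:**
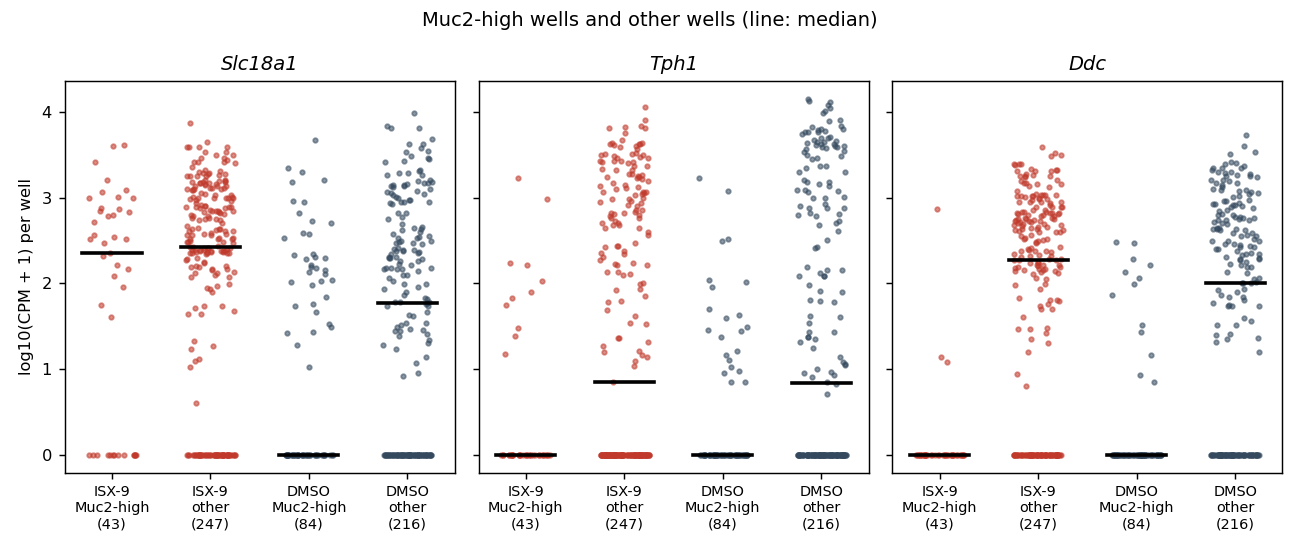
Log10(CPM + 1) per well of Slc18a1, Tph1 and Ddc in Muc2-high wells (at least 1000 CPM of Muc2) and in the other wells of the ISX-9 plate (red) and the DMSO plate (dark blue). Each point is a well, with the number of wells under the axis, and the black line is the median. Slc18a1 has a median of 228 CPM in the 43 Muc2-high ISX-9 wells, where the medians of Tph1 and Ddc are 0.

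Across wells the members split in the same way. Spearman correlations of CPM per well were taken over 290 ISX-9 and 300 DMSO wells, which share a library and differ in depth, and genes were ranked by the lower of the 2 plates among 8194 genes. For Tph1, Slc18a1 ranked 17, Gch1 18 and Ddc 44, at 0.36 to 0.42, 0.36 to 0.48 and 0.28 to 0.37. Qdpr ranked 452, Pts 3564, Maoa 5867 and Spr 6235, all with a lower value of at most 0.09. Neurog3 ranked 7874, at -0.15 in ISX-9 and 0.16 in DMSO. With Ddc, Neurog3 correlated at 0.28 in ISX-9 and 0.25 in DMSO.

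The 10 genes most like Tph1 were Chgb, Scn3a, Chga, Tac1, Lmx1a, Rab3c, Ncam2, Gnao1, Vim and Neurod1. Their lower values ran from 0.60 for Chgb, a granin of secretory granules, to 0.42 for Neurod1, an endocrine transcription factor. Among them Tac1 encodes the precursor of substance P, and Scn3a a voltage-gated sodium channel. Those most like Ddc were Neurod1, Nkx2-2, Runx1t1, Fev and Cplx2, at 0.46 to 0.44, with transcription factors in the first ranks. For Gch1 they were Cacna2d1, Vim, Lmx1a, Fev and Stx1a, at 0.47 to 0.43. For Slc18a1 they were Cpe, Insm1, Tph1, Neurod1 and Atp6v1b2, at 0.37 to 0.35. Slc18a2 and Maob were read in too few wells to be ranked.

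Of 37 further genes around the pathway, 33 were listed under their symbol, and Akr1b3, Asmt, Tph2 and Atp6v0c were not analysed here. In the pterin list, 0 of 5 members with a mean of at least 10 CPM were 2-fold apart between the plates, with a median log2 ratio of 0.36. Of these 5, 1 was at least 2-fold higher with Tph1 in both plates, Gchfr, which encodes the feedback regulator of the Gch1 enzyme. In the lists described below the count was 0. Over all genes 3.66% were that much higher with Tph1 in ISX-9 and 3.61% in DMSO. Gchfr stood at 25.8 CPM with and 3.61 CPM without Tph1 in ISX-9 (1.84), and at 13.3 and 4.06 CPM in DMSO (1.01). It was read in only 6.55% of ISX-9 and 6.67% of DMSO wells. Pcbd1, which regenerates the cofactor beside Qdpr, stood at 202 CPM in ISX-9 and 174 CPM in DMSO, and did not go with Tph1 (0.04 in ISX-9 and -0.01 in DMSO).

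Among genes of amine uptake, Slc29a4, a low-affinity monoamine transporter of the plasma membrane, was the 1 of 5 with a mean of at least 10 CPM. Its level was 54.1 CPM (49.9 to 58.4) with ISX-9 and 14.6 CPM (12.7 to 16.7) with DMSO, a log2 ratio of 1.59, in 32.4% and 9.67% of wells. Over all genes 4.51% were at least 2-fold higher in ISX-9. The serotonin transporter gene Slc6a4 stood at 11.4 CPM in ISX-9 and 8.20 CPM in DMSO. Among genes of serotonin breakdown and conjugation at that level, 1 of 5 was 2-fold higher in ISX-9 and 0 were 2-fold lower. This compares with 4.51% and 1.19% of all genes, and the median of the list was 0.08. The higher gene was Aldh1a1, an aldehyde dehydrogenase, at 30.9 CPM in ISX-9 against 6.91 CPM in DMSO (1.59). Aldh2, Aldh1b1 and Aldh3a2 lay between -0.62 and 0.39.

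In the list of tryptophan supply and rival use, 1 of 5 was 2-fold higher and 1 of 5 2-fold lower, against 4.51% and 1.19% of all genes, with a median of -0.38. Slc7a8, a transporter of neutral amino acids, stood at 28.1 CPM in ISX-9 and 9.76 CPM in DMSO (1.17), and was also higher with Tph1 (1.44 in ISX-9 and 0.82 in DMSO). Wars, which charges tRNA with tryptophan, stood at 79.7 CPM in ISX-9 and 189 CPM in DMSO (-1.20). Of 8 vesicle acidification genes 0 were 2-fold apart, with a median of 0.14, and the highest ratio was that of Atp6v0a1, at 175 CPM in ISX-9 and 101.5 CPM in DMSO (0.76).

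Serotonin and amine genes are also known from mast cells and neurons. Of 6 mast cell markers, which would mark another source of serotonin genes, Fcer1a, Ms4a2 and Mcpt1 had 0 reads in both plates, and Cpa3 and Tpsb2 had 0 reads in ISX-9. The list still summed to 164 CPM in ISX-9 and 155.5 CPM in DMSO, which in ISX-9 was the receptor gene Kit alone. Of the neuron markers, Dbh, which converts dopamine to noradrenaline, had 0 reads in both plates, and Th had 0 in ISX-9. Neuron markers summed to 260 CPM in ISX-9 and 94.3 CPM in DMSO, with 3 of 7 at least 2-fold higher in ISX-9 and 1 at least 2-fold lower. They stood higher with Tph1, at 349 CPM with and 176 CPM without in ISX-9, and at 132 and 45.7 CPM in DMSO. Enterochromaffin markers summed to 29224 CPM with and 3491 CPM without Tph1 in ISX-9, and to 26835 and 2836 CPM in DMSO. Peptidergic markers summed to 5374 CPM with and 695 CPM without Tph1 in ISX-9, and to 6878 and 4623 CPM in DMSO. Goblet markers summed to 1938 CPM with and 6123 CPM without in ISX-9, and to 4418 and 16828 CPM in DMSO. The part of these markers in the values with and without Tph1 was not tested.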

How the data were processed

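The deposited values are read counts per gene and well for 2 plates of 384 single cells, 1 plate for each treatment, made by SORT-seq, which copies the 3′ end of transcripts. BWA (no version given) and the human build hg19 are listed in the submitters' processing notes, while the deposited rows carry mouse symbols, and no other build is stated in the sources used here. The 4-base molecular identifier allows 256 combinations, and the deposited counts reach 30676 in ISX-9 and 61032 in DMSO, so they were taken as reads and not as molecules. All 384 well columns of each plate were tested to hold whole numbers.

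Spike-in rows (5.49% of ISX-9 and 4.27% of DMSO reads) and mitochondrial rows (24.7% and 26%) were left out of the totals, and the ribosomal precursor Rn45s (6.10% and 12.6%) stayed in. Wells with at least 2000 reads and 500 genes were kept, and kept wells had from 2007 to 326339 reads in ISX-9 and from 2295 to 489134 in DMSO. Reads were summed over wells and given as CPM with exact 95% Poisson intervals. Shares of wells have exact Clopper-Pearson intervals, and ratios are log2 of (CPM + 5). A count of 0 over a plate allows up to 3 counts, 0.254 CPM in ISX-9 and 0.203 CPM in DMSO. Doublets were not called, and leaving out the 5% of wells with most reads was an alternative. With 1 plate per treatment no test between treatments was made. The cultures, animals and sorting days behind each plate are not stated in the sources used here.

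The 10 members and all gene lists were chosen with earlier results of these data known. The genes named are the members, Neurog3, the 10 genes most like Tph1 and the 5 most like each of Ddc, Gch1 and Slc18a1, which were read in at least 10% of the wells of both plates (Slc18a2 was not), and up to 6 genes of each pathway list with a mean of at least 10 CPM, by size of ratio. Of the last, the text gives values for those past 2-fold and for a few others as examples, chosen after their values were seen. Alternatives were median-of-ratios, spike-in and Rn45s-free totals, means over wells, wells thinned to 2000 reads, other pseudocounts, well filters, read limits and Neurog3 limits, and wells left out. The Tph1 classes, the states of Neurog3 with Tph1 and the Muc2 contrasts were added after seeing the data. Ratios, thinning and correlations were tested on simulated data. The work used Python 3.11.15, numpy 2.4.6, pandas 2.3.3, scipy 1.17.1 and matplotlib 3.10.9.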

Additional observations from a re-analysis of the deposited data

Results flagged for a closer look

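For 3 ratios the ISX-9 and DMSO plates had opposite signs, and none of these differences between plates was tested. Slc18a1 in Muc2-high wells over the other wells was at 0.19 in ISX-9 and -1.52 in DMSO on the log2 scale. Tph1 in wells of 1000 to below 10000 CPM of Neurog3 over wells with 0 Neurog3 reads was at -1.01 in ISX-9 and 0.41 in DMSO. Gch1 in wells from 10000 CPM of Neurog3 over wells with 0 Neurog3 reads was at -0.98 in ISX-9 and 0.87 in DMSO, where 11 wells form the highest group.

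The wells below the filter on depth, 94 in ISX-9 and 84 in DMSO, entered no comparison and still held reads of the members. Tph1 stood there at 441.5 CPM in ISX-9 and 237.9 CPM in DMSO, and Slc18a1 at 504.6 CPM in ISX-9 and 75.14 CPM in DMSO. Gch1 stood at 135.2 CPM in ISX-9 and 12.52 CPM in DMSO, and Qdpr at 108.1 CPM in ISX-9 and 18.79 CPM in DMSO. These wells hold few reads, with a median of 1180 in ISX-9 and 1202 in DMSO, and Gch1 in DMSO rests on 2 reads.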

How the results depend on the processing

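No paired analysis was possible because each treatment is 1 plate. Between plates, the median log2 ratio of the 10 members (0.08) was -0.16 with ERCC scaling, 0.30 as a mean over wells, 0.45 in thinned wells, 0.38 without the top 5% of wells and -0.11 without Muc2-high wells. Past 2-fold, 1 was higher in thinned wells (Maob), 1 without the top 5% of wells and 1 without each highest well (Slc18a1), and 1 was lower in thinned wells and 1 in the mean over wells (Slc18a2), against 0 and 0. The sign turned for Ddc with median-of-ratios (-0.061) and ERCC scaling (-0.15) and without Muc2-high wells (-0.12). It turned in the mean over wells, after thinning and without the top 5% of wells for Qdpr (0.090, 0.63 and 0.22) and Maoa (0.38, 0.36 and 0.068). The full set was in 14.5% of ISX-9 and 8.33% of DMSO wells at 5 reads, 16.9% and 9.33% at 100 CPM, and 6.21% and 2.67% thinned. The Neurog3 ratio of Tph1 in ISX-9 was -1.61 with a limit of 5000 CPM, -1.76 thinned and -1.87 as a mean over wells. In DMSO it was -0.49, 0.035 and -0.21 with these settings and -1.49 without Muc2-high wells. That of Ddc in DMSO was 2.33 thinned and 1.32 without Muc2-high wells, and that of Slc18a1 in ISX-9 -0.49 thinned and -0.61 as a mean over wells. With Tph1 set at 5 reads, the Tph1 ratios were 1.39 for Ddc, 2.69 for Gch1 and 1.29 for Slc18a1 in ISX-9, and 2.25, 1.59 and 2.04 in DMSO. As a mean over wells they were 0.94 for Ddc and 1.19 for Slc18a1 in ISX-9 and 1.67 for Slc18a1 in DMSO. Thinned, Ddc was at 0.76 in ISX-9 and 1.14 in DMSO, Slc18a1 at 1.26 and 1.49, and Gch1 in DMSO at 0.20. Without Muc2-high wells Ddc was at 0.90 in ISX-9 and 1.17 in DMSO, and Slc18a1 at 1.13 in ISX-9. The sign turned as a mean over wells and thinned for Spr in ISX-9 (0.18 and 0.30) and for Maoa in ISX-9 (-0.12 and -0.56) and DMSO (-0.48 and -0.089). The Muc2 ratio of Slc18a1 in ISX-9 was -0.041 in wells without Tph1, Neurog3 and Chga and -0.26 as a mean over wells. The causes were not tested. Of all alternatives to the main results, 1 reversed, 41 moved and 54 did neither. The main results were the plate counts and median of the members and the full-set shares. They also held the Neurog3 ratios of Tph1 and Ddc and the Tph1 ratios of Ddc, Gch1 and Slc18a1. Of all alternatives to the other values, 19 reversed, 137 moved and 213 did neither. Depth limits Slc18a2 and Maob, read in under 5% of wells, and the 11 DMSO wells of highest Neurog3.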
